A study of Mus musculus with 8 samples.

Results

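This report describes 10 genes of cyclic AMP (cAMP) signalling in the mouse aorta. They are 6 adenylate cyclases (Adcy3, Adcy4, Adcy5, Adcy6, Adcy7 and Adcy9), the catalytic subunits Prkaca and Prkacb of protein kinase A (PKA), and its regulatory subunits Prkar1a and Prkar2b. Each gene was taken as the row of the deposited table that carried its name and, where several rows did, as the one with the most counts. The table named 41186 genes in 48607 loci. The 10 genes were carried by 19 loci, and all 10 chosen loci were among the 20506 loci tested, which had at least 1 FPKM (the fragment count relative to locus length and library size) in at least 3 libraries. Whole aortas came from mice fed a Western diet for 12 weeks, and poly(A) RNA was sequenced. All mice lacked apolipoprotein E. By title, 5 libraries were ApoE-/- and 3 were NPRC-/-ApoE-/-, which also carried a systemic CRISPR frameshift in exon 1 of Npr3, the gene of natriuretic peptide receptor C (NPRC). The control mice were littermates. The study's methods describe its purchased ApoE-/- mice as male and give their age, but do not restate sex or age for the crossed littermates. The genotype entered for each sample named the same group as the title in 4 libraries (ApoE-/- 1, 2 and 3 and NPRC-/-ApoE-/- 3). It named the other group for ApoE-/- 4 and 5 and for NPRC-/-ApoE-/- 1 and 2. Groups were therefore formed by title, and every comparison was repeated by genotype entry.

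Adenylate cyclases are membrane enzymes that make cAMP from ATP. The stimulatory G protein Gs activates them, and the inhibitory protein Gi restrains several isoforms, Adcy5 and Adcy6 in particular. NPRC clears natriuretic peptides and couples to Gi, which is why cyclase and PKA were of interest in these mice. PKA is held inactive as a complex of regulatory and catalytic subunits. When cAMP binds the regulatory subunits, the catalytic subunits are released and phosphorylate targets such as the transcription factor CREB. In arterial smooth muscle, cAMP and PKA are known for relaxation.

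The total count was 62969165 to 86693276 per library. Npr3 FPKM ranged from 0.62 to 1.69 in titled ApoE-/- and from 1.13 to 1.39 in titled NPRC-/-ApoE-/- libraries (log2 fold change 0.10, unadjusted p = 0.737, edgeR's quasi-likelihood test), and the groups overlapped under either label. A frameshift need not lower the mRNA, and the level cannot settle which label is right. All 10 smooth muscle markers were detected, as the tissue label implies, with a summed level of 1354 to 2996 FPKM. By title, 6.51% of all loci tested were higher in NPRC-/-ApoE-/- with an unadjusted p under 0.05, and 7.13% were lower. Of the 10 smooth muscle markers, 9 were higher with such a p. The list's mean level was 8.49 to 8.90 log2 CPM (counts scaled to library size) in ApoE-/- against 8.93 to 9.75 in NPRC-/-ApoE-/-. Of 10 macrophage markers, 6 were lower with such a p (5.79 to 7.02 against 6.60 to 8.01 log2 CPM), as were 2 of 10 fibroblast markers (7.09 to 7.67 against 7.70 to 8.45 log2 CPM, without overlap) and 5 of the 7 tested Schwann cell and neuron markers (0.10 to 1.19 against 2.47 to 3.77, without overlap). None of the 10 endothelial markers had such a p, although the list's mean level did not overlap (6.03 to 6.15 in NPRC-/-ApoE-/- against 6.18 to 6.31 in ApoE-/-), nor had any of the tested brown adipocyte (10) or skeletal muscle (4) markers. In the lymphocyte list 1 of 3 tested markers was lower, and 1 of 9 white adipocyte and 1 of 3 cardiomyocyte markers were higher. By genotype entry 0 markers of these lists had an unadjusted p under 0.05, where 1.31% of all loci did. The mean level of each list then overlapped between the groups. In whole aorta, fewer cells of a type and less RNA per cell cannot be told apart.

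Adcy9 is ranked here by its annotated locus, described below with the plus-strand locus that the selection took. Across the 8 libraries, Prkar1a was the most abundant of these genes on the FPKM scale, at 58.9 ± 5.69 FPKM (SD, n = 8), and Prkar2b the least of those ranked, at 2.69 ± 0.917. Adcy5 (34.5 ± 12.2) and Prkaca (34.0 ± 5.28) followed Prkar1a and could not be ordered, since Adcy5 was above Prkaca in 4 of 8 libraries. Adcy6 (18.8 ± 4.08) came next and was above Adcy7 (11.7 ± 1.74) in all 8. Adcy7 was above Adcy3 (11.6 ± 2.33) in 5 of 8, so these neighbours could not be ordered either. Below them were Prkacb (8.59 ± 1.62), the annotated Adcy9 locus (6.38 ± 0.903) and Adcy4 (4.18 ± 0.531). The plus-strand Adcy9 locus ranged from 0.39 to 3.91 FPKM and was below Prkar2b in 5 of 8 libraries. Its coefficient of variation was 92.0%. Among the loci ranked, Adcy5 had the widest spread relative to its mean, with a coefficient of variation of 35.3%, followed by Prkar2b at 34.1%, whereas Prkar1a varied by 9.66%. FPKM divides by the length of the assembled locus. For the loci ranked, counts and FPKM together imply lengths from 2.99 kb for Prkaca to 21.0 kb for Adcy5 and 27.0 kb for Prkar2b. The implied length of the plus-strand Adcy9 locus was 68.5 kb. A long assembled locus lowers the FPKM, so the order between genes depends on the assembly.

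**Figure D1:**
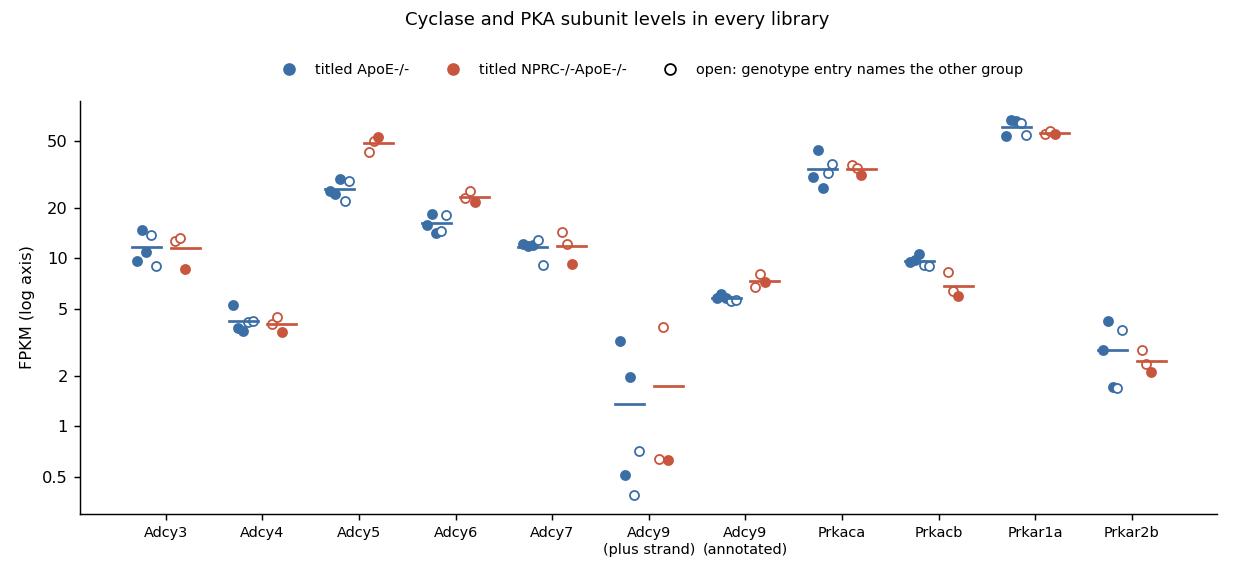
FPKM (log axis) of every cyclase and PKA subunit gene in each library, in blue for libraries titled ApoE-/- (n = 5) and red for those titled NPRC-/-ApoE-/- (n = 3), with a line at the group mean and open circles where the genotype entry names the other group. Adcy5, Adcy6 and the annotated Adcy9 locus are higher in all 3 red libraries than in any blue one, and Prkacb is lower.

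By title, 3 of the 10 genes had an unadjusted p under 0.05, where 13.6% of all loci tested did. Adcy5 and Adcy6 were higher in NPRC-/-ApoE-/- (2 of 10, against 6.51% of loci higher with such a p), and Prkacb was lower (1 of 10, against 7.13%). The same 3 genes, and 7.41% of all loci, had titled groups that did not overlap in normalised counts, the scale on which overlap is given for all genes. None met the study's criterion, which asks for both an unadjusted p under 0.05 and a fold over 2 or under 0.5 and which 3.47% of loci met. After Benjamini-Hochberg adjustment over the 20506 loci, edgeR gave none an adjusted p under 0.05, where 0% of loci did and the smallest adjusted p of the 10 genes was 0.189. With DESeq2, 3.17% of loci had an adjusted p under 0.05, and 2 of the 10 genes did, Adcy5 (4.25e-05) and Adcy6 (0.000637). With limma's array quality weights, 5.7% of loci and 3 of the 10 genes did, with Prkacb as the third. The median log2 fold change of the 10 genes was 0.01, and that of all loci -0.01. All these counts take Adcy9 at its plus-strand locus and depend on that choice. The annotated Adcy9 locus had an unadjusted p of 0.0097 by title, without overlap, and of 0.802 by genotype entry (edgeR).

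Adcy5, an isoform inhibited by Gi and by calcium, was the most abundant cyclase. It lies on the plus strand of chromosome 16 from 35154877 to 35305738 (GRCm38, ENSMUSG00000022840, GENCODE M21), where Gm49702, a gene of unclassified type, lies on the same strand. Its level was 25.1, 24.2, 29.8, 22.0 and 29.1 FPKM in ApoE-/- 1 to 5, and 43.2, 49.8 and 52.5 FPKM in NPRC-/-ApoE-/- 1 to 3. Every library titled NPRC-/-ApoE-/- was above every library titled ApoE-/-, with means of 48.5 ± 4.79 (SD, n = 3) and 26.0 ± 3.31 (SD, n = 5) FPKM. The log2 fold change was 0.92 (SE 0.17, 95% interval 0.54 to 1.30), a fold of 1.89, with an unadjusted p of 0.00034 and an adjusted p of 0.189 (edgeR). The adjusted p ranged from 4.25e-05 (DESeq2) to 1.00 (genotype entry) over the alternatives. A two-sided exact permutation test of log2(FPKM + 1) gave p = 0.036, the smallest that 5 against 3 libraries allow. By genotype entry the log2 fold change was 0.05 (SE 0.36), and the highest and the lowest library then stood in the same group.

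Adcy6, the close relative of Adcy5, is likewise inhibited by Gi. On chromosome 15 it spans 98589973 to 98610076 on the minus strand, where a gene annotated as antisense overlaps it. Its level was 15.7, 18.3, 14.2, 14.5 and 18.0 FPKM in ApoE-/- 1 to 5, and 22.9, 25.2 and 21.7 FPKM in NPRC-/-ApoE-/- 1 to 3. The titled groups did not overlap, and the lowest NPRC-/-ApoE-/- library stood above the highest ApoE-/- library. The log2 fold change was 0.55 (SE 0.11, 95% interval 0.30 to 0.81), a fold of 1.47, with an unadjusted p of 0.00079 and an adjusted p of 0.216 by edgeR (0.000637 to 1.00 over the alternatives). The two-sided exact permutation test again gave its smallest p, 0.036. By genotype entry the sign turned, to a log2 fold change of -0.06 (SE 0.22) with overlapping groups.

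Adcy9, a broadly expressed isoform, had its counts in loci of both strands. The locus with most counts, which the selection took, lies on the plus strand of chromosome 16 from 4337649 to 4402642, opposite to the Adcy9 gene (ENSMUSG00000005580, minus strand, 4287529 to 4420498), and holds no annotated transcript. Its counts were 17919, 2316, 11090, 2197 and 3714 in ApoE-/- 1 to 5 and 3827, 17145 and 3728 in NPRC-/-ApoE-/- 1 to 3. ApoE-/- 1, ApoE-/- 3 and NPRC-/-ApoE-/- 2 were high, so both titled groups held high and low libraries. The log2 fold change by title was 0.36 with an SE of 0.84 (unadjusted p = 0.675). By genotype entry, where all 3 high libraries are ApoE-/-, it was -1.82 (SE 0.64, unadjusted p = 0.027, adjusted p = 1.00, edgeR). It was the 1 of 10 genes with an unadjusted p under 0.05 by that label, where 1.31% of loci had one.

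The locus that holds the annotated Adcy9 transcripts, on the minus strand from 4284543 to 4419808, was therefore measured beside it. Its level was 5.80, 6.16, 5.78, 5.58 and 5.67 FPKM in ApoE-/- 1 to 5, and 6.75, 8.11 and 7.21 FPKM in NPRC-/-ApoE-/- 1 to 3. The titled groups did not overlap, with means of 5.80 ± 0.221 (SD, n = 5) and 7.36 ± 0.692 (SD, n = 3) FPKM. The log2 fold change was 0.37 (SE 0.11, 95% interval 0.11 to 0.62, unadjusted p = 0.0097, adjusted p = 0.284, edgeR; over the alternatives 0.053 to 1.00). By genotype entry it was -0.04. This locus was examined after the strand of the other was seen. The kit marks strand, but the strand setting used in counting is not stated, so reads of the 2 strands may not be fully separated.

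Adcy3, Adcy4 and Adcy7 had titled groups that overlapped. Adcy3 (chromosome 12, 4133103 to 4213525, plus strand), known for odour signalling and primary cilia, overlaps Cenpo on the opposite strand and had 9.04 to 14.7 FPKM in ApoE-/- and 8.59 to 13.2 FPKM in NPRC-/-ApoE-/-. Its log2 fold change was -0.01 (95% interval -0.50 to 0.48). Adcy4 (chromosome 14, 55769057 to 55784095, minus strand), a calcium-insensitive isoform, had 3.70 to 5.29 FPKM in ApoE-/- and 3.63 to 4.49 FPKM in NPRC-/-ApoE-/-, with a log2 fold change of -0.04 (95% interval -0.35 to 0.27). These intervals leave room for changes in either direction. Adcy7 (chromosome 8, 88272403 to 88329961, plus strand), an isoform known from blood and immune cells, had 9.16 to 12.8 FPKM in ApoE-/- and 9.26 to 14.3 FPKM in NPRC-/-ApoE-/-. Its log2 fold change was 0.04 (95% interval -0.36 to 0.45), and it was positive in some and negative in other alternatives.

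The sum of the 6 cyclases, with the annotated Adcy9 locus, reached 72.9 to 79.1 FPKM in titled ApoE-/- and 103 to 113 FPKM in titled NPRC-/-ApoE-/- libraries. The groups did not overlap, and the ratio of their means was 1.41 by title and 0.937 by genotype entry. Adcy5 made up 30.3 to 39.0% of the sum in ApoE-/- and 41.6 to 51.0% in NPRC-/-ApoE-/-. The share of Adcy6 was 18.6 to 24.0% and 21.1 to 22.3%. These sums are values without a test, and the shares depend on the assembled lengths given above.

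**Figure D2:**
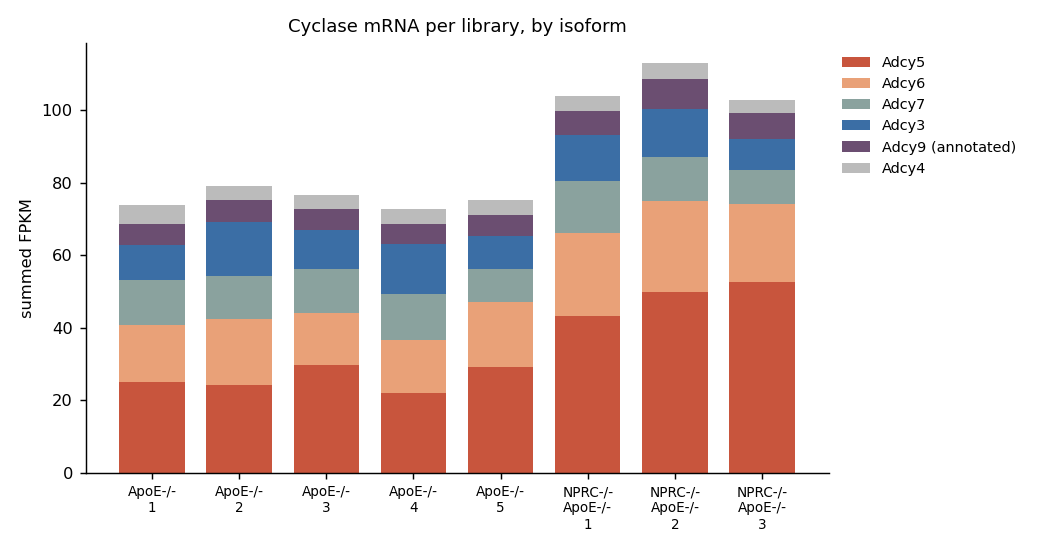
Summed FPKM of the 6 adenylate cyclases in each library, grouped by title, with 1 colour for each isoform and Adcy9 at its annotated locus. The bars reach 72.9 to 79.1 FPKM in the 5 ApoE-/- libraries and 103 to 113 FPKM in the 3 NPRC-/-ApoE-/- libraries, and Adcy5 is the largest segment in all 8.

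Promoter sequences were read from RefSeq (GRCm38.p6) for the genes whose titled groups did not overlap and for the 1 gene with a whole cAMP response element (CRE), the site that CREB binds. The table held 21 promoters of 9 of the 10 genes and none under the name Adcy6. The 250 bases before each start were searched on both strands for the CRE TGACGTCA, its half-site TGACG, the GC box GGGCGG and the CArG box of serum response factor. A whole CRE contains the half-site. The capitals mark GC boxes in Adcy5, the CRE half-site in Adcy9 and Prkacb, and the CRE in Prkar1a. The Prkacb and Prkar1a sequences end before the first annotated exon base within their own window. The Prkar1a stretch belongs to an internal start and lies inside the annotated gene (109649405 to 109669656). They are chr16:35154614-35154863 (plus strand) for Adcy5, chr16:4420499-4420748 (minus strand) for Adcy9, chr3:146812991-146813196 (minus strand) for Prkacb, and chr11:109650699-109650920 (plus strand) for Prkar1a.
Adcy5: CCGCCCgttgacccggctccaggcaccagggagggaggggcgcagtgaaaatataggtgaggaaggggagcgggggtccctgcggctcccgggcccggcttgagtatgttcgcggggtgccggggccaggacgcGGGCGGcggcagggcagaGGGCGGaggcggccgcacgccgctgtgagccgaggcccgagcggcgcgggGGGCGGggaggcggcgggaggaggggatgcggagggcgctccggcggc
Adcy9: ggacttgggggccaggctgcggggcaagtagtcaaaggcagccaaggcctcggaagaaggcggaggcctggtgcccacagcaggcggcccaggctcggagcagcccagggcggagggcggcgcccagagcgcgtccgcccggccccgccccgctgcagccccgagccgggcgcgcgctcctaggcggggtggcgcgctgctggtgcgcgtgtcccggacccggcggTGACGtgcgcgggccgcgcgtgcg
Prkacb: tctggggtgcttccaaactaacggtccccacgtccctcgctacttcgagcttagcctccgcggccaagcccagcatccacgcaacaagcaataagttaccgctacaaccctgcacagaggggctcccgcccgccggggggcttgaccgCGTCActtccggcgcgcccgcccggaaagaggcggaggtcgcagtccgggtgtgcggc
Prkar1a: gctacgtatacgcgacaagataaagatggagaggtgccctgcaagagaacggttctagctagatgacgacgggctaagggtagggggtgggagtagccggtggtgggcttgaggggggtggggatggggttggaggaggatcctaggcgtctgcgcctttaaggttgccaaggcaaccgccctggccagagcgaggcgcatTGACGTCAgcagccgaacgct

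The Adcy5 promoter had 4 GC boxes and a GC content of 78.0%, and neither a CRE nor a half-site was found in this window. The Adcy9 promoter also had 4 GC boxes (GC content 78.8%), not in capitals above, as did 1 promoter of Prkar2b (75.6%). The whole CRE stood in 1 of the 21 promoters, 1 of 6 of Prkar1a, 49 bases before that start, and 1.55% of all 32851 promoters of the table hold one. A half-site was found in 7 of the 21 promoters, and 17.8% of all promoters hold one. GC boxes were found in 10 of the 21 (32.7% of all promoters) and a CArG box in 0 (1.47% of all promoters). Promoters of 1 gene can overlap and are not independent. A match describes the letters only.

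Prkacb, which encodes the beta catalytic subunit, spans 146729574 to 146812990 on chromosome 3 (minus strand). Its level was 9.56, 9.74, 10.6, 9.17 and 9.02 FPKM in ApoE-/- 1 to 5, and 8.25, 6.42 and 5.99 FPKM in NPRC-/-ApoE-/- 1 to 3. All 3 NPRC-/-ApoE-/- libraries were below every ApoE-/- library, with means of 6.89 ± 1.20 (SD, n = 3) and 9.61 ± 0.613 (SD, n = 5) FPKM. The log2 fold change was -0.47 (SE 0.14, 95% interval -0.78 to -0.15), a fold of 0.723, with an unadjusted p of 0.0090 and an adjusted p of 0.279 by edgeR (0.037 with array quality weights in limma to 1.00 over the alternatives). The two-sided exact permutation test gave p = 0.036, its smallest value. By genotype entry the log2 fold change was -0.12 (SE 0.21) and the groups overlapped.

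Prkaca, the alpha catalytic subunit and the major one in most tissues, lies on the plus strand of chromosome 8 from 83972993 to 83996443. Its level was 30.4, 44.1, 26.3, 32.4 and 36.7 FPKM in ApoE-/- 1 to 5, and 36.0, 34.4 and 31.4 FPKM in NPRC-/-ApoE-/- 1 to 3. The NPRC-/-ApoE-/- libraries lay within the range of the others (log2 fold change 0.02, 95% interval -0.32 to 0.36). The summed level of both catalytic subunits was 36.9 to 53.9 FPKM in ApoE-/- and 37.4 to 44.3 FPKM in NPRC-/-ApoE-/-, a ratio of means of 0.936. Prkacb made up 18.1 to 28.7% of it in ApoE-/- and 15.7 to 18.6% in NPRC-/-ApoE-/-, with overlapping groups.

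Prkar1a, the type I alpha subunit that restrains PKA throughout the body, lies on the plus strand of chromosome 11 from 109649405 to 109669656. Its level was 53.4, 66.8, 65.9, 64.0 and 54.0 FPKM in ApoE-/- 1 to 5, and 55.0, 57.4 and 54.7 FPKM in NPRC-/-ApoE-/- 1 to 3. The 3 NPRC-/-ApoE-/- libraries lay near the lower end of the ApoE-/- range, and the log2 fold change was -0.11 (95% interval -0.45 to 0.23). Prkar2b, the type II beta subunit known from brain and fat, spans 31958476 to 32061296 on chromosome 12 (minus strand). It had 1.69 to 4.22 FPKM in ApoE-/- and 2.12 to 2.84 FPKM in NPRC-/-ApoE-/-, with a log2 fold change of -0.18 (95% interval -0.82 to 0.47). The ratio of summed regulatory to summed catalytic FPKM was 1.26 to 1.83 in ApoE-/- and 1.31 to 1.52 in NPRC-/-ApoE-/-, so the ranges overlapped.

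**Figure D3:**
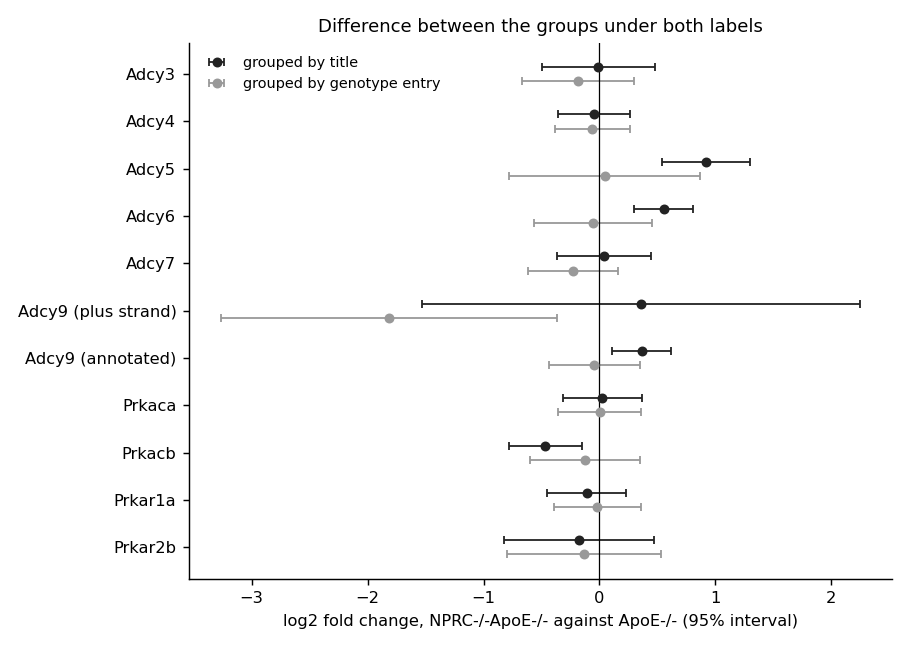
Log2 fold change of NPRC-/-ApoE-/- against ApoE-/- with its 95% interval from edgeR, in black when libraries are grouped by title and in grey when grouped by genotype entry. By title the intervals of Adcy5, Adcy6, the annotated Adcy9 locus and Prkacb exclude 0; by genotype entry, that of the plus-strand Adcy9 locus does.

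The differences of Adcy5, Adcy6, Prkacb and the annotated Adcy9 locus were those of the titled groups. By genotype entry 0 of the 10 genes had groups without overlap, where 1.21% of loci did, and the 10 genes had a median log2 fold change of -0.09. In the 4 libraries with agreeing labels (3 against 1, values only), the log2 fold change was 1.07 for Adcy5, 0.52 for Adcy6, 0.37 for the annotated Adcy9 locus and -0.65 for Prkacb. Each had the sign found by title. Groups without overlap give that sign in any subset of their libraries, so it cannot show which label is right.

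The mean level of the smooth muscle markers was also higher in titled NPRC-/-ApoE-/- libraries, without overlap. Adcy5, Adcy6 and the annotated Adcy9 locus differed in the same direction, and Prkacb in the other. In normalised counts, Adcy5 stood 0.33 to 0.49 log2 units above the mean of the 10 smooth muscle markers of its own library in ApoE-/- and 0.44 to 0.87 in NPRC-/-ApoE-/-, so the groups overlapped on this relative scale. The mean difference was 0.24, against 0.92 on the library scale. For Adcy6 the relative difference between the groups was -0.13 and for the annotated Adcy9 locus -0.33, both with overlap. Prkacb was 1.16 log2 units lower on that scale (-3.18 against -2.02), with no overlap. In titled NPRC-/-ApoE-/- libraries Prkacb was lower and the marker mean higher, each without overlap. A larger relative difference without overlap therefore had to follow, and it adds no evidence on Prkacb. This relative scale was chosen after the values were seen, and the part of smooth muscle, macrophage or nerve content in these results was not tested.

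**Figure D4:**
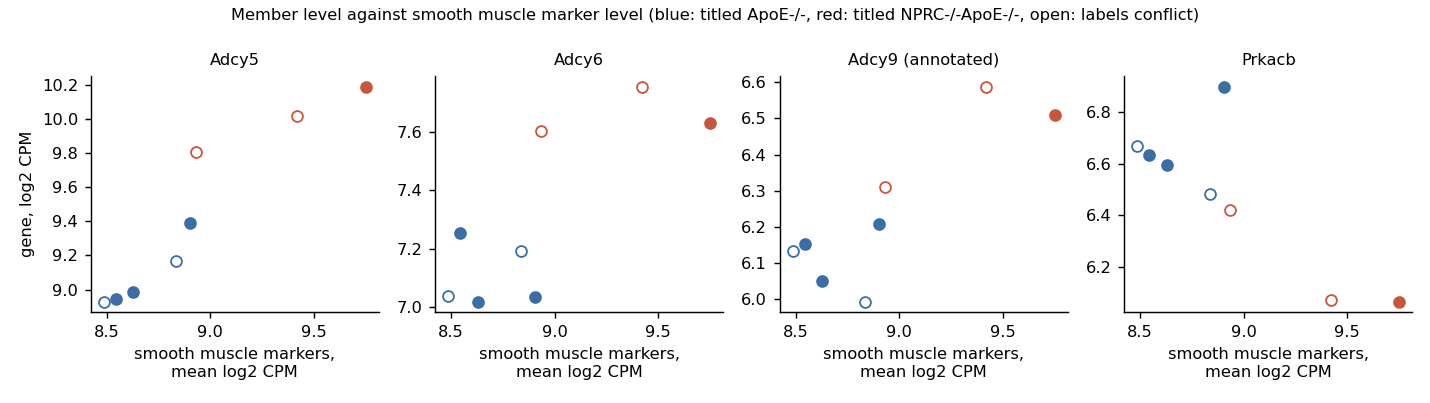
Level of Adcy5, Adcy6, the annotated Adcy9 locus and Prkacb (log2 CPM) against the mean level of 10 smooth muscle markers (log2 CPM) in each of 8 libraries, in blue for titled ApoE-/-, red for titled NPRC-/-ApoE-/- and open where the labels conflict. The red libraries lie at 8.93 to 9.75 on the marker axis and the blue ones at 8.49 to 8.90.

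Around the cyclases and PKA, 69 other genes of the cAMP pathway were listed and 52 were tested. By title 12 had an unadjusted p under 0.05 (23.1%, against 13.6% of all loci), 5 higher and 7 lower. With edgeR 0 had an adjusted p under 0.05 (smallest 0.163), as did 0% of all loci. DESeq2 gave 4 of them such an adjusted p (Pde3a, Pde7b, Sphkap and Fos), where 3.17% of all loci had one. The median log2 fold change of the 52 genes was 0.00 (edgeR). By genotype entry 0 had an unadjusted p under 0.05.

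Upstream of the cyclases, none of the 5 tested G protein alpha subunits had an unadjusted p under 0.05. Gnai2, the most abundant of them and a Gi subunit, had 37.6 to 58.3 FPKM in ApoE-/- and 32.5 to 46.4 FPKM in NPRC-/-ApoE-/- (log2 fold change -0.33, SE 0.22). Of the 4 other cyclases, Adcy1 and Adcy8 were below the level tested. Adcy2 was at 0.95 to 2.71 FPKM in ApoE-/- and 0.59 to 1.25 FPKM in NPRC-/-ApoE-/- (log2 fold change -1.01, SE 0.46, unadjusted p = 0.063, edgeR). Adcy10, the soluble cyclase that bicarbonate activates, shared its locus with Mpc2 and had a log2 fold change of -0.20 (SE 0.24). Neither of the other regulatory subunits had an unadjusted p under 0.05. Prkar1b had a log2 fold change of -0.90 (SE 0.47), with overlap. Prkar2a was measured at 4.45 to 5.04 FPKM in ApoE-/- and 5.20 to 6.02 FPKM in NPRC-/-ApoE-/- (log2 fold change 0.22, SE 0.12, unadjusted p = 0.090, edgeR). Among the inhibitor peptides that bind free catalytic subunit, Pkia had a log2 fold change of -0.04 (SE 0.16).

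Phosphodiesterases break down cAMP, and 3 of the 11 tested had an unadjusted p under 0.05, where 13.6% of all loci did. Pde3a, the cGMP-inhibited enzyme of smooth muscle and heart, was higher in NPRC-/-ApoE-/-, at 6.77 to 10.3 FPKM in ApoE-/- against 10.6 to 11.8 FPKM (log2 fold change 0.51, SE 0.17, unadjusted p = 0.015). Pde7b, at a plus-strand locus without an annotated transcript, was lower at 0.70 to 1.10 against 1.40 to 2.41 FPKM (log2 fold change -1.19, SE 0.22, unadjusted p = 0.00061). Its annotated locus had a log2 fold change of -0.75 with overlapping groups. The third, Pde1b, was lower with overlap (log2 fold change -0.79).

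Anchoring proteins hold PKA at its targets, and 3 of 12 tested had an unadjusted p under 0.05, where 13.6% of all loci did. Sphkap, which anchors type I PKA, was at 0.44 to 1.00 FPKM in ApoE-/- and at 1.42 to 2.81 FPKM in NPRC-/-ApoE-/- (log2 fold change 1.96, SE 0.31, unadjusted p = 0.00013). Akap6 was higher (0.71) and Ezr lower (-0.82), both with overlap. Of 3 tested effectors other than PKA, 1 had an unadjusted p under 0.05 (edgeR), where 13.6% of all loci did. This was Bves, which was higher (log2 fold change 0.71, with overlap). Rapgef3, which encodes the cAMP-activated exchange factor Epac, had a log2 fold change of -0.14 (SE 0.14).

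Of 8 tested CREB family and coactivator genes, 2 had an unadjusted p under 0.05 (edgeR), where 13.6% of all loci did. Crtc3 was higher (log2 fold change 0.42, with overlap). Crem was lower, at 0.96 to 1.82 FPKM in ApoE-/- against 0.66 to 0.91 FPKM (log2 fold change -0.73, SE 0.26, unadjusted p = 0.024). The Crem locus holds no annotated transcript and has no strand, and its annotated locus gave -0.71. Of 7 tested CREB target genes, 3 were lower with an unadjusted p under 0.05, where 7.13% of all loci were. Nr4a2, an orphan nuclear receptor induced rapidly by many stimuli, was at 1.86 to 8.50 FPKM in ApoE-/- and 1.24 to 1.47 FPKM in NPRC-/-ApoE-/- (log2 fold change -1.52, SE 0.52, unadjusted p = 0.021). Fos (-2.03) and Nr4a1 (-1.16) overlapped between the groups. Fos was at 15.3, 80.3, 105, 41.9 and 12.7 FPKM in ApoE-/- 1 to 5. All 3 NPRC-/-ApoE-/- libraries had 11.9 to 13.1 FPKM of Fos. Fos, Nr4a1 and Nr4a2 were each highest in ApoE-/- 2 and 3, and the cause of this shared pattern was not tested. The study reported higher cAMP, phosphorylated PKA substrate and phosphorylated CREB in NPRC-/-ApoE-/- aorta. The mRNA levels given here do not measure these. It also reported PPARγ and PGC1α as higher there, by protein measures and by qPCR, which are other measures than the sequencing used here. Pparg had a log2 fold change of 0.38 (SE 0.48), and Ppargc1a one of 0.67 (SE 0.51) at a locus without an annotated transcript and 0.09 at its annotated locus.

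**Figure D5:**
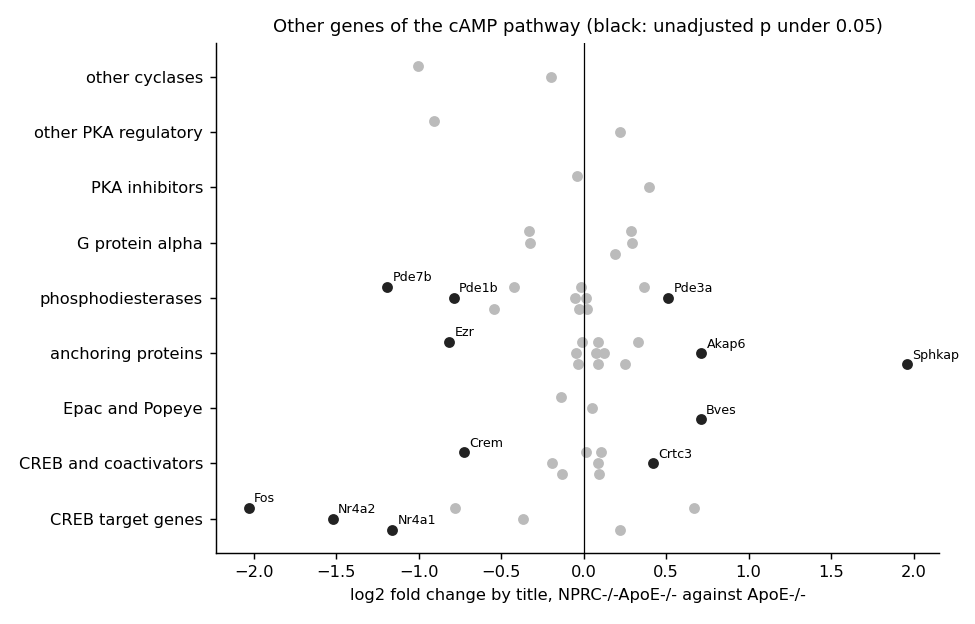
Log2 fold change by title (NPRC-/-ApoE-/- against ApoE-/-) of the 52 tested genes of 9 lists around the cyclases and PKA, 1 point a gene, in black with the symbol where the unadjusted p was under 0.05. Of the 12 black points, 5 lie to the right of 0 and 7 to the left, from Fos at -2.03 to Sphkap at 1.96.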

How the data were processed

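Poly(A) RNA of whole aortas was sequenced by the authors, who trimmed reads (cutadapt 1.9, per the labels' processing notes), mapped them to GRCm38 with HISAT2 and assembled them with StringTie. The authors deposited whole-number counts per locus, not normalized, and FPKM values, normalized to locus length and library. The strand setting of counting is not given in the sources used here. Libraries were grouped by title and again by genotype entry, and 0 columns of values lacked a sample. Loci that reached 1 FPKM in 3 or more libraries were tested on counts with edgeR 4.0.16 (R 4.3.3, TMM, quasi-likelihood test, Benjamini-Hochberg over 20506 loci). The fit was tried on simulated data. Of 67 loci changed 1.5-fold, 28 had an unadjusted p under 0.05 and 1 an adjusted p under 0.05. Of 67 changed 2-fold, 53 and 14 did, so most changes of these sizes were missed after adjustment. log2 CPM used a prior count of 2. Single genes were compared on log2(FPKM + 1) with two-sided exact permutation tests (scipy 1.17.1). Total counts were 62969165 to 86693276, and with 8 libraries (biological coefficient of variation 0.327) their number limits the precision. No pair of libraries agreed within sampling noise. P-values measure the spread between libraries.

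The members and the gene lists were chosen with earlier results of these data known. Named genes are the 10 members, Npr3, Pparg and Ppargc1a, list genes with an unadjusted p under 0.05 and no overlap between titled groups, and otherwise the most abundant gene of a list. Adcy2, Prkar1b, Pde1b, Akap6, Ezr, Bves, Crtc3, Nr4a1 and Fos were named after their values were seen. For a gene with several loci the one with most counts was used. Alternatives were the genotype entry, limma 3.58.1 with pseudocounts of 1 and 0.1 or with array quality weights, DESeq2 1.42.0, other filters and size factors, a replicate block, each library left out, and loci summed or replaced by the annotated one.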

Additional observations from a re-analysis of the deposited data

Results flagged for a closer look

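Adcy7 stood apart in 1 library under each label. By title, ApoE-/- 5 was the lowest of its group at 9.16 FPKM, far below the next (11.9 FPKM). By genotype entry, the library titled NPRC-/-ApoE-/- 1 was the highest of the 5 entered as ApoE-/-, at 14.3 FPKM. In all, 22 groups were looked at, and chance alone would give about 1.1 such libraries.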

How the results depend on the processing

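Grouped by title, the log2 fold changes of Adcy5 (0.84 to 1.09), Adcy6 (0.51 to 0.63) and Prkacb (-0.60 to -0.38) kept their sign and an unadjusted p under 0.05 in all 18 tested alternatives, and that of the annotated Adcy9 locus kept its sign in all 17. The replicate numbers did not mark pairs (correlations of same-numbered libraries -0.31, -0.11 and 0.01). In the 6 libraries numbered 1 to 3, the replicate block moved loci with an unadjusted p under 0.05 from 2651 to 1813, and the annotated Adcy9 locus lost its call (log2 fold change 0.33, unadjusted p = 0.082, edgeR); Adcy7 was at -0.020 with the block and -0.0069 without, and the plus-strand Adcy9 locus at -0.64 and -0.13.

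With Adcy9 at its plus-strand locus, the 10 genes with an unadjusted p under 0.05 fell from 3 to 1 by genotype entry. Those without overlap fell from 3 to 0, and the pathway genes from 12 to 0. Signs turned for Adcy6 (-0.056), Adcy7 (-0.23), the plus-strand Adcy9 locus (-1.82), the annotated Adcy9 locus (-0.044), Pde7b (0.0074), Pkia (0.00086), Rapgef3 (0.091) and the summed cyclase level (-0.094). In the 4 agreeing libraries they turned for Adcy7 (-0.30), the plus-strand Adcy9 locus (-1.50) and Prkaca (-0.011). Relative to smooth muscle markers they turned for Adcy6 (-0.13) and the annotated Adcy9 locus (-0.33). With a mean of at least 5 FPKM Adcy3 was at 0.10, with array quality weights Adcy7 at -0.029, and with loci summed Prkar2b at 0.18.

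The number of the 10 genes with an adjusted p under 0.05 went from 0 to 2 with DESeq2 and 3 with array quality weights, while all loci with one went from 0 to 650 (3.17%) and 1168 (5.7%) of 20506. Pathway genes with an adjusted p under 0.05 went from 0 to 4 with DESeq2 and 5 with these weights, and were 0 to 1 with 1 library left out (1 without NPRC-/-ApoE-/- 1). Those with an unadjusted p under 0.05 went from 12 to 22 with these weights, where all loci went from 2797 to 5909 of 20506, and to 5 with a mean of at least 5 FPKM, where 736 of 4246 loci had one. Leaving out 1 library at a time gave 6 to 17 (6 without NPRC-/-ApoE-/- 2, 7 without NPRC-/-ApoE-/- 3). It gave log2 fold changes of -0.10 to 0.15 for Adcy3, -0.087 to 0.031 for Adcy4, -0.089 to 0.18 for Adcy7, -1.03 to 0.91 for the plus-strand Adcy9 locus, -0.024 to 0.12 for Prkaca, -0.29 to 0.00076 for Prkar2b, -0.23 to 0.14 for Pkia and -0.037 to 0.24 for Npr3. Nr4a2 lost its unadjusted p under 0.05 without NPRC-/-ApoE-/- 1 or 2, and Crem without NPRC-/-ApoE-/- 1. The cause of these shifts was not tested. The number of libraries and the conflict of labels limit these results.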

Other observations

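Other loci without an annotated transcript lie inside the genes described here, on either strand. The largest lies on the minus strand opposite to Adcy5, on chromosome 16 from 35163472 to 35215421. Its counts were 39261, 13818, 24033, 39326 and 41378 in ApoE-/- 1 to 5 and 49903, 67001 and 106368 in NPRC-/-ApoE-/- 1 to 3, so the titled groups did not overlap. Its log2 fold change was 1.29 by title (SE 0.36, unadjusted p = 0.0049, adjusted p = 0.255, edgeR) and 0.57 by genotype entry. A smaller minus-strand locus in Adcy5, from 35236041 to 35245741, had a log2 fold change of 1.04 (SE 0.39, unadjusted p = 0.022, adjusted p = 0.316, edgeR). Summed over all 8 libraries, the larger of these loci held 381088 counts against 455591 of Adcy5 itself. In Prkar2b, 3 such loci held 37343, 23816 and 12336 counts against 45008 of the gene. Their counts were lowest in ApoE-/- 3 or ApoE-/- 4, the libraries in which Prkar2b itself was lowest, and no unadjusted p was under 0.05. In Prkaca, a minus-strand locus of 2049 counts had a log2 fold change of 0.74 (SE 0.33, unadjusted p = 0.049, adjusted p = 0.365, edgeR). Whether these loci are transcripts of their own or reads of the gene counted on the other strand was not tested.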
